A study of Mus musculus with 2 samples.

Results

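Scgb1b27, Scgb2b27, Mup5 and Esp8 are 4 mouse genes of families whose secreted proteins carry or act as pheromones and odorants, and their RNA was followed here in single cells of the parotid gland (PG). They were taken by symbol from the 48825 features that both count matrices list, and all 4 had UMIs (unique molecular identifiers, one for each captured RNA molecule) in both libraries. The study profiled dissociated PG of wild-type C3H female mice about 1 year old by droplet single-cell RNA-seq. One library came from untreated control glands, and the other from glands taken 10 months after fractionated irradiation (IR) of the head and neck with 6 Gy a day for 5 days, 30 Gy in all. Each library pooled the glands of 2 mice, so there was 1 library per condition, and the effect of IR cannot be told apart from a difference between the mice or the preparations. No replicate test is therefore given, and every interval below is an exact 95% interval that covers counting error only.

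The parotid is a serous salivary gland in which acinar cells make most of the salivary protein and intercalated ducts (ID) and striated ducts (SD) carry it towards the mouth. In mice, saliva also carries proteins with a role in social signals. Secretoglobins of the androgen-binding protein group work as dimers of an alpha subunit, of the kind Scgb1b27 encodes, and a beta or gamma subunit, of the kind Scgb2b27 encodes. Major urinary proteins such as Mup5 are lipocalins, whose barrel-shaped fold holds small volatile molecules. Exocrine gland-secreted peptides, the family of Esp8, include ligands of receptors in the vomeronasal organ.

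On the mouse assembly GRCm38, Scgb2b27 (ENSMUSG00000066584.10) lies on the minus strand at chr7:34011921-34013942 and Scgb1b27 (ENSMUSG00000066583.4) on the plus strand at chr7:34021483-34022881. The pair is thus transcribed in opposite directions from starts on the facing sides of 7540 bases of sequence between the genes, and each gene has 3 exons. Mup5 (ENSMUSG00000058523.2) has 7 exons on the minus strand at chr4:61831319-61835233, and Esp8 (ENSMUSG00000090747.2) has 3 exons on the plus strand at chr17:40520022-40530421. Of all 50-base stretches of the annotated transcripts, 17.1% in Mup5 also occur in transcripts of other genes, 24 in number, with Mup4 (10.96%) and Mup1 (6.96%) first, so reads of Mup5 could be shared with relatives and its counts are less certain. The same share was 1.86% for Scgb2b27 and 0 for Scgb1b27 and Esp8.

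The 250 bases before the start of the 3 members with a promoter in RefSeq (GRCm38.p6) are printed 5′ to 3′ on each gene's own strand, because the Scgb pair was the most alike of the members across cells and Esp8 the least. Capitals mark CAGGAAGT, a longer ETS-type site, looked for because one of the cell classes is named for the ETS factor Etv1. Its shorter core GGAA is not marked and also occurs in the windows of Scgb2b27 and Esp8. The motifs were chosen after these sequences were seen. The Scgb2b27 window lies at chr7:34013943-34014192, that of Scgb1b27 at chr7:34021231-34021480 and that of Esp8 at chr17:40519772-40520021.
Scgb2b27: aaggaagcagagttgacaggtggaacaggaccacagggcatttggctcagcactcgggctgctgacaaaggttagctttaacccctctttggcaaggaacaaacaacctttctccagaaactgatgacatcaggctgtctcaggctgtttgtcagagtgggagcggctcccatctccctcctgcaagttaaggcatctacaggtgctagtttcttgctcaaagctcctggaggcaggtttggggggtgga
Scgb1b27: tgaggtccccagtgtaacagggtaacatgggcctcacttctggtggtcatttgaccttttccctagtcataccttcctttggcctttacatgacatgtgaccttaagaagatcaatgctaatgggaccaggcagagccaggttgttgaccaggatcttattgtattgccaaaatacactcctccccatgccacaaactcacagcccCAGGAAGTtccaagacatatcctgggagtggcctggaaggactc
Esp8: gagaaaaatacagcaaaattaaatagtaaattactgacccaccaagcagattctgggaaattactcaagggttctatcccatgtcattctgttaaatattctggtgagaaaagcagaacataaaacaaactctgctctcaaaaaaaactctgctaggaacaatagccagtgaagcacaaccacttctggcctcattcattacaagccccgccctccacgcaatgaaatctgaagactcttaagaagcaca
CAGGAAGT, read on both strands, occurred in the window of Scgb1b27 and in 2.69% of the 32851 RefSeq promoters. None of the 3 windows held TATAA, found in 22.8% of promoters, or CAGCTG, found in 13.001%, both read on both strands. Both Scgb genes held TATAA, on their own strand, in the first exon within the 50 bases after the RefSeq start, an arrangement seen in 1.74% of promoters. Its first base was base 29 in Scgb2b27 and base 43 in Scgb1b27, counted from 1 at the RefSeq start, which is the base after each printed window and for Scgb1b27 lies just before the GENCODE start given above, and the stretches around it, with TATAA in capitals, lie at chr7:34013905-34013924 and chr7:34021513-34021530.
Scgb2b27 after the start: gataatcgttTATAAggaag
Scgb1b27 after the start: ccagggcagtTATAAaag
These are matches of letters only, and factor binding was not measured.

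The control library held 5550 barcodes and 22707876 UMIs and the IR library 7793 barcodes and 23890757 UMIs. The study's limits of at least 200 genes and at most 5% mitochondrial UMIs left 3378 control and 5286 IR cells, whose median depths were 2907.5 and 2461.5 UMIs. The libraries shared 12 barcodes, of which 3 were kept in both. Clusters were built without the members and their families and named by fixed marker lists. The acinar-like cluster was led by Amy1, Chia1, the member Mup5, which the clustering did not use, and Dnase1, and all 12 acinar markers were high in it. A cluster led by Etv1, with all 10 markers of its list high, is called Etv1-high. Genes of the acini were read in every class: Bpifa2, the most abundant salivary transcript, made up 20.6% of all kept UMIs, and all members were found at low levels in lymphocytes. The B-like cells, which should lack the members, therefore stand beside each value as the background of free RNA.

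In the control library all 4 members had their highest level in acinar-like or Etv1-high cells. Levels are counts of a gene per 1000000 UMIs of the cell class (CPM). Scgb1b27 stood at 1648 CPM (1602 to 1695) in the 380 control acinar-like cells and at 1735 (1706 to 1765) in the 265 control Etv1-high cells, against 142 in the 836 B-like cells. Scgb2b27 stood at 1240 CPM in acinar-like, 1609 in Etv1-high and 172 in B-like cells. By these class sums both subunit genes were somewhat higher in Etv1-high than in acinar-like cells, with intervals apart, but the order of Scgb1b27 did not hold per cell. With each cell thinned to 1000 UMIs its mean was 1.79 UMIs in acinar-like and 1.52 in Etv1-high cells, and its median over the unthinned cells was 812 and 688 CPM. Mup5 had the opposite order, with 662 CPM (633 to 692) in acinar-like and 298 in Etv1-high cells, the latter beside 305 in the shallow macrophage-like cells, against 79.8 in B-like cells. Esp8 was the scarcest of the 4 in both classes, at 66.6 CPM (57.7 to 76.6) in acinar-like, 57.6 in Etv1-high and 9.05 in B-like cells, and its intervals in the first 2 overlapped.

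The duct classes lay between these and the lymphocytes. In the 104 control ID-like cells the levels were 377 CPM for Scgb1b27, 312 for Scgb2b27, 106 for Mup5 and 49.9 for Esp8. In the 91 control SD-like cells they were 599, 561, 175 and 24.9 CPM in the same order. Shallow cells can read as high on this scale: the SD-like cells had a median of 721 UMIs, and the macrophage-like cells, with a median of 709, gave 827 CPM of Scgb1b27. Per cell, these macrophage-like cells held 0.724 UMIs of Scgb1b27, still 1.84 (1.41 to 2.37) times a B-like cell. For Scgb2b27 their ratio was 1.15 (0.861 to 1.52). Control red blood cell-like cells held 3.39 (2.22 to 4.99) times the Scgb1b27 UMIs of a B-like cell, so B-like cells were not the level of every non-epithelial class. Counted per cell, SD-like control cells held 0.527 UMIs of Scgb1b27 and 0.495 of Scgb2b27, against 0.394 and 0.478 in a B-like cell, and the ratios to B-like cells, 1.34 (0.969 to 1.82) and 1.03 (0.742 to 1.41), had intervals that include 1. Acinar-like control cells held 12.9, 9.70, 5.18 and 0.521 UMIs per cell of Scgb1b27, Scgb2b27, Mup5 and Esp8, which is 32.8, 20.3, 23.4 and 20.7 times the UMIs of a B-like cell. Per cell, the Scgb pair in control SD-like cells was thus not above the background, whereas all 4 members in acinar-like cells were. Control ID-like cells were above it per cell for Scgb1b27 (2.96, 2.38 to 3.65), Scgb2b27 (2.01, 1.60 to 2.51) and Esp8 (6.12, 2.99 to 12.3). Their Mup5 (1.48, 0.993 to 2.14) was not. In IR SD-like cells the Scgb pair was above a B-like cell of that library, at 2.40 (1.88 to 3.02) and 2.74 (2.27 to 3.28).

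**Figure D1:**
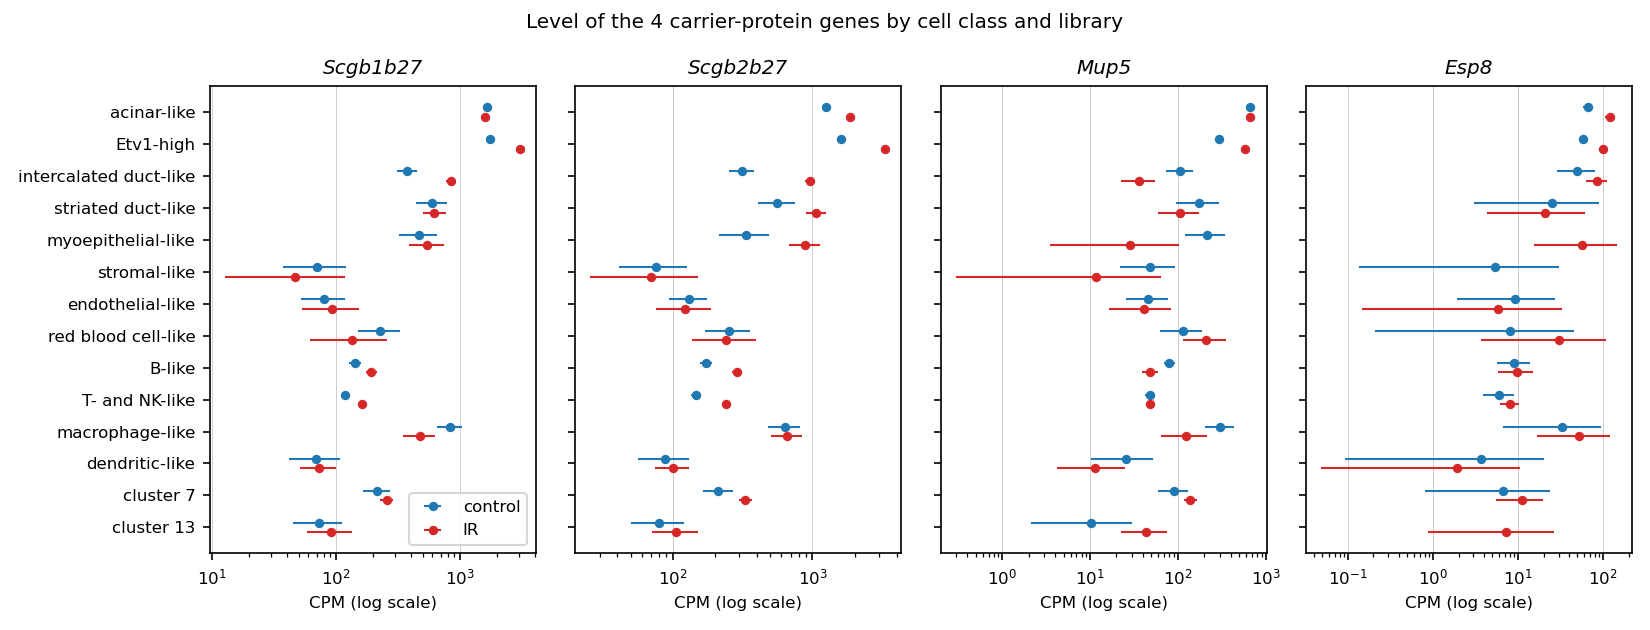
Level of each member (CPM, log axis) in every cell class and unnamed cluster of the control and IR libraries. Points are the class sums, lines are exact 95% intervals for counting error, and values of 0 are not drawn. The acinar-like and Etv1-high rows stand highest for Scgb1b27 and Scgb2b27 in both libraries, and the B-like and T- and NK-like rows show the background.

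Not every acinar-like cell gave a UMI of each member. In the control library a UMI was found in 83.7% of acinar-like cells for Scgb1b27, 87.6% for Scgb2b27, 49.7% for Mup5 and 31.6% for Esp8. In B-like cells, whose median depth was 2538.5 against 5256.5 UMIs for acinar-like cells, the shares were 29.1%, 33.7%, 15.6% and 2.51%. With each cell thinned to 1000 UMIs, which left 365 acinar-like and 822 B-like control cells, they were 57.0%, 54.2%, 25.5% and 8.77% in acinar-like and 13.6%, 14.1%, 6.33% and 0.730% in B-like cells. At equal depth each member was therefore still found in a larger share of acinar-like than of B-like cells. In the IR library the thinned acinar-like shares were 53.0%, 63.5%, 21.8% and 9.63%, over 353 cells.

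Of the 4 members, Scgb2b27 and Esp8 were higher in IR than in control acinar-like cells, and Scgb1b27 and Mup5 were level. Scgb2b27 went from 1240 to 1864 CPM, a ratio of 1.5 (1.44 to 1.57), and Esp8 from 66.6 to 120 CPM, a ratio of 1.80 (1.499 to 2.15). Scgb1b27 stood at 1648 and 1590 CPM (ratio 0.965, 0.926 to 1.01) and Mup5 at 662 and 663 CPM (ratio 1.0, 0.939 to 1.07). Of the 2146 genes with at least 50 UMIs in these cells, 22.2% were past 1.5-fold higher in IR and 2.33% past 1.5-fold lower, against 2 and 0 of the 4 members, with Scgb2b27 just past the limit. The median gene had a ratio of 1.23 (0.30 on the log2 scale), so relative to it Scgb1b27 and Mup5 were lower and Scgb2b27 and Esp8 higher. Some of the most abundant secretory genes were lower in IR and their part in that shift was not tested: Smr3a, a submaxillary androgen-regulated protein gene, stood at 0.528 of its control level and Car6, a secreted carbonic anhydrase, at 0.635. Amy1 stood at 0.870, whereas Bpifa2 (1.10) and Pip (1.06) were higher in IR. With totals that leave out abundant genes (non-members over 1% of all UMIs, and all mitochondrial and haemoglobin genes), Scgb2b27 had a ratio of 1.27, no longer past 1.5-fold, and Esp8 1.51, and Scgb1b27 and Mup5 had 0.814 and 0.845. With every cell thinned to 1000 UMIs the ratio of Esp8 was 1.06, a value that rests on 0.0932 and 0.0992 UMIs per cell.

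All 4 members were higher in the IR than in the control library in Etv1-high cells, of which there were 265 in each. Scgb1b27 went from 1735 to 3049 CPM (ratio 1.76, 1.72 to 1.80), Scgb2b27 from 1609 to 3321 (2.06, 2.02 to 2.11), Mup5 from 298 to 584 (1.96, 1.85 to 2.07) and Esp8 from 57.6 to 101 (1.76, 1.54 to 2.004). Here 18.6% of 5999 genes were past 1.5-fold higher in IR, against 4 of 4 members, and the median gene had a ratio of 1.19 (0.25 on the log2 scale). A few cells carried much of this. Without the 5% of cells with most UMIs of each gene in each library the ratios were 1.11, 1.41, 1.12 and 1.60, so that those of Scgb1b27 and Mup5 were below the median gene of all cells. The median depth of the class also moved, from 24190 UMIs in control to 5722 in IR. Its part in the ratios was not tested. UMIs per cell in control and IR were 49.7 and 55.0 for Scgb1b27, 46.0 and 59.9 for Scgb2b27, 8.52 and 10.5 for Mup5 and 1.65 and 1.83 for Esp8.

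By summed CPM, a second round of clustering placed the largest difference in the Etv1-high cells of cluster 6.0. This cluster was led by the proline-rich and secretory genes Prh1 and Prol1 and by the member Scgb1b27, which the clustering did not use. Scgb1b27 there was 1970 CPM in 111 control cells and 4868 in 87 IR cells, Scgb2b27 1751 and 4853, Mup5 386 and 1038, and Esp8 57.5 and 116. The median depth of cluster 6.0 was 39847 UMIs in control and 14359 in IR. At 1000 UMIs per cell, 55.9% of its control and 65.1% of its IR cells had a UMI of Scgb1b27. The shares were 67.6% and 69.8% for Scgb2b27, 15.3% and 29.1% for Mup5 and 5.41% and 8.14% for Esp8. For each member the intervals of these shares overlapped. In the whole class, a single IR cell held 2364 of the 14572 UMIs of Scgb1b27. By summed CPM other clusters came close for single members. Scgb2b27 stood at 765 and 1997 CPM in cluster 6.1 and Esp8 at 51.0 and 103 CPM in cluster 6.2. Cluster 6.3 was led by the duct gene Wfdc18 and held 25 cells in each library. It had the reverse for Scgb1b27, 1702 in control and 1061 CPM in IR, with intervals apart. Its Mup5 (148 and 105 CPM) and Esp8 (73.1 and 67.4 CPM) were not higher in IR either, with intervals that overlapped. The higher level of Scgb1b27, Mup5 and Esp8 in the IR cells of the class was therefore not shared by all of its clusters.

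In ID-like cells the subunit genes and Mup5 went opposite ways. Scgb1b27 stood at 377 CPM in control and 849 in IR (ratio 2.25, 1.84 to 2.77) and Scgb2b27 at 312 and 957 (3.07, 2.48 to 3.83), while Mup5 stood at 106 and 36.1 CPM (0.341, 0.190 to 0.60) on 34 and 22 UMIs. Esp8 stood at 49.9 and 85.4 CPM (1.71, 0.962 to 3.21). The ratio of Scgb1b27 was 1.15 with equal weight per cell and 3.57 without the 5% of cells with most of its UMIs, and that of Scgb2b27 was 2.105 and 4.61. Of 604 genes tested in the class, 14.7% were past 1.5-fold higher and 16.7% past 1.5-fold lower. Among the secretory genes compared, Amy1 (1.26), Bpifa2 (1.51), Pip (1.76), Car6 (1.48), Prol1 (4.65) and Odam (2.58) were also higher in IR. Smr3a (0.650) and Dcpp1 (0.756) were lower. The higher level of the Scgb pair in IR was thus not particular to the pair. Mup5 per cell stood near the background in both libraries, at 1.48 (0.993 to 2.14) and 1.46 (0.879 to 2.34) times a B-like cell. The class was not made of the same cells in both libraries: cluster 9.0, led by Mucl2, held 22 of 104 control cells and 67 of 125 IR cells, and the median depth was 1264 UMIs in control and 4549 in IR. Within cluster 9.0 Scgb1b27 gave a UMI in 40.9% of the control and 98.5% of the IR cells and Scgb2b27 in 59.1% and 97.0%, at 558 and 993 CPM and at 515 and 1071 CPM, with median depths of 3146.5 and 7220 UMIs. Mup5 was found in 20.9% of these IR cells and Esp8 in 47.8%. In clusters 9.1 and 9.2, the rest of the class, Scgb1b27 was not higher in IR. It stood at 518 (316 to 800) and 455 CPM (243 to 779) in cluster 9.1 on 20 and 13 UMIs. In cluster 9.2 it stood at 221 (156 to 304) and 110 CPM (50.2 to 208) on 37 and 9 UMIs, so the intervals overlapped in both. Scgb2b27 stood at 337 and 1016 CPM in 9.1, with intervals apart, and at 167 and 244 CPM in 9.2, with intervals that overlapped. The higher Scgb1b27 of the class was thus seen in cluster 9.0 alone of its 3 clusters.

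In SD-like cells Scgb2b27 went from 561 to 1059 CPM (ratio 1.89, 1.34 to 2.69), and the intervals of the other ratios, 1.04 for Scgb1b27, 0.602 for Mup5 and 0.843 for Esp8, included 1. This class too was made of different cells in the libraries: one second-round cluster held 76 control and 18 IR cells and the other, 11.1, held 15 and 59, and the median depth was 721 and 2002 UMIs. Scgb2b27 stood at 557 and 483 CPM within the former, on 37 and 8 UMIs, and at 584 and 1135 CPM within 11.1, on 8 and 143 UMIs. The class had 66.5% of its 352 tested genes past 1.5-fold in either direction. Among the secretory genes compared, Amy1 (1.43), Bpifa2 (2.39), Pip (1.72) and Dcpp1 (5.64) were higher in IR as well. Smr3a (0.418), Car6 (0.673), Prol1 (0.875) and Odam (0.204) had ratios below 1. The background itself differed between the libraries: in B-like cells the ratios were 1.36 for Scgb1b27, 1.67 for Scgb2b27, 0.605 for Mup5 and 1.07 for Esp8, with 13.8% of 6423 genes past 1.5-fold in either direction. The T- and NK-like cells gave 1.36, 1.65, 0.996 and 1.34. Among the B-like cells, a single control cell held 38 UMIs of Mup5. Subtracting the UMIs of a B-like cell of the same library from each acinar-like cell moved no acinar-like ratio outside its interval. Little was subtracted, in control 0.394 of 12.9 UMIs per cell for Scgb1b27 and 0.478 of 9.70 for Scgb2b27. The part of free RNA in the acinar-like ratios was therefore not tested by it.

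**Figure D2:**
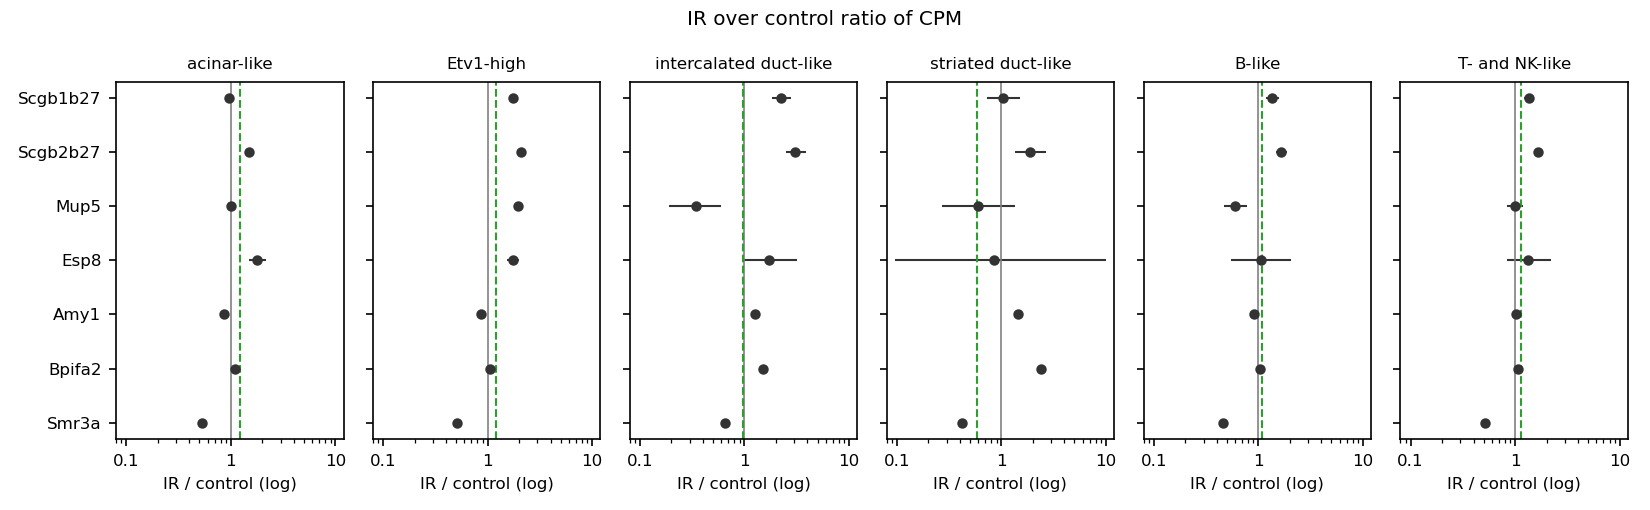
Ratio of CPM in IR over control (log axis) for each member and for Amy1, Bpifa2 and Smr3a, with exact 95% intervals for counting error. The classes drawn are the acinar-like, Etv1-high, ID-like, SD-like, B-like and T- and NK-like cells. The grey line is a ratio of 1, and the dashed green line is the ratio of the median gene tested in that class. Scgb2b27 lies above 1 in acinar-like, Etv1-high, ID-like, SD-like, B-like and T- and NK-like cells, whereas Mup5 lies at 1.0, 1.96 and 0.341 in acinar-like, Etv1-high and ID-like cells.

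The balance of the secretoglobin pair shifted towards Scgb2b27 in IR. The ratio of Scgb2b27 to Scgb1b27 UMIs, which does not depend on the total of a cell, was 0.752 (0.721 to 0.785) in control and 1.17 (1.13 to 1.22) in IR acinar-like cells, 1.56 times higher (1.47 to 1.65). In Etv1-high cells it was 0.927 in control and 1.09 in IR, 1.18 times higher (1.14 to 1.22), in ID-like cells 0.826 and 1.13, and in SD-like cells 0.938 and 1.70. The B-like cells had 1.22 and 1.49 and the T- and NK-like cells 1.23 and 1.48. The ratio was higher in IR in 13 of the 14 cell classes and unnamed clusters, with intervals apart in 2, the acinar-like and Etv1-high cells. These classes were not independent of each other since all of them read the free RNA of their library. The 2 also had the most UMIs, with 13158 and 14572 of Scgb1b27 in Etv1-high against 329 and 401 in B-like cells. Overlap elsewhere thus does not show a level ratio. The rise in B-like and T- and NK-like cells was not smaller than that in Etv1-high cells. In the control library the lymphocyte ratio, 1.22, was above that of both acinar-like and Etv1-high cells. Ratios between the genes depend on how well each is captured. They are therefore compared between classes and libraries and not read as the proportion of the RNAs.

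The shift was also seen cell by cell. Among acinar-like cells with at least 20 UMIs of the pair, Scgb2b27 made up a median of 41.7% of them in 92 control cells (10.7% to 72.4% over the cells) and 56.3% in 109 IR cells (26.1% to 87.9%). In Etv1-high cells the medians were 52.2% over 139 control and 57.1% over 103 IR cells. The ranges overlapped widely, and the acinar-like cells differed more than the Etv1-high cells.

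**Figure D3:**
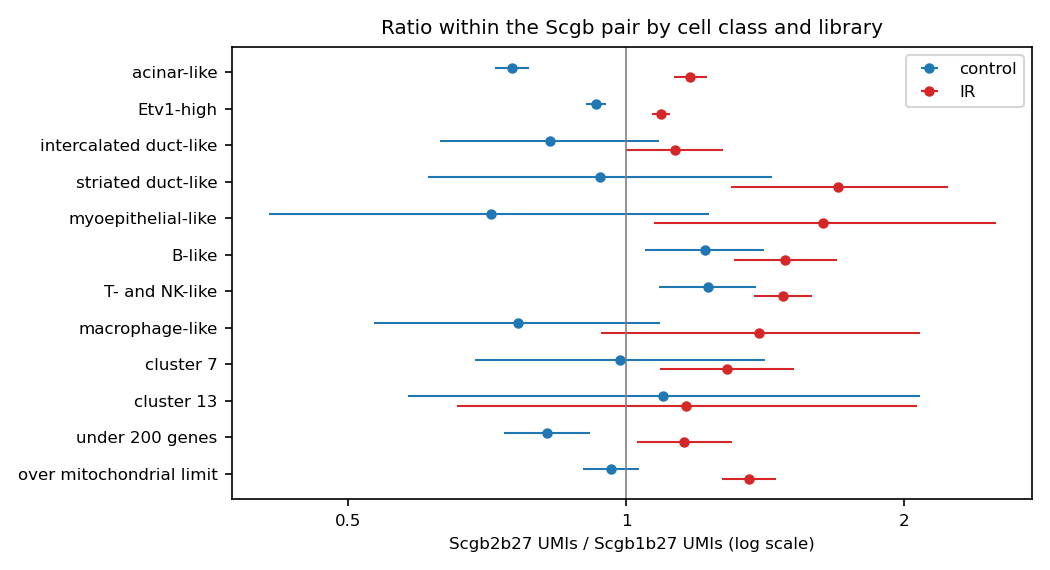
Ratio of Scgb2b27 to Scgb1b27 UMIs (log axis) in the control and IR libraries, with exact 95% intervals for counting error, for the cell classes with at least 20 UMIs of Scgb1b27 in each library and for the barcodes left out for few genes or mitochondrial UMIs. The grey line is a ratio of 1. The IR value lies to the right of the control value in the acinar-like (0.752 and 1.17), Etv1-high (0.927 and 1.09) and lymphocyte classes and in both sets of left-out barcodes.

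Scgb1b27, Scgb2b27 and Mup5 were concentrated in few cells. The 10% of control acinar-like cells with most UMIs of a gene, 38 cells, held 62.4% of the UMIs of Scgb1b27, 59.2% of Scgb2b27 and 81.2% of Mup5, against 33.9% for Amy1, the salivary amylase, and 32.9% for Bpifa2. The trait was not particular to the members: of the 8 secretory genes compared, Odam had 88.4% and Prol1 68.5%, both on under 1000 UMIs in all, Smr3a 50.3% and Dcpp1 49.9%. In IR the same shares were 61.0%, 53.9% and 81.3%, with 34.3% for Amy1. Odam had 70.8% there, Prol1 63.9%, Dcpp1 61.4% and Smr3a 53.7%. Single control acinar-like cells reached 604 UMIs of Scgb1b27, 418 of Scgb2b27 and 241 of Mup5, while the median cell stood at 812 CPM, 688 CPM and 0. At 1000 UMIs per cell the variance over the mean was 6.36 for Scgb1b27, 3.73 for Scgb2b27 and 6.74 for Mup5 in control and 8.78, 5.33 and 6.49 in IR, where a count that varies by sampling alone has 1. Esp8 had 1.03 and 0.961, so at this depth no spread beyond sampling was detectable for it, and with a highest cell of 5 UMIs in control its share in the upper 10% of cells, 54.5%, reflects its low counts. In B-like cells, at the same depth, the values in control were 1.22 and 1.25 for the Scgb pair and 2.16 for Mup5. In IR they were 1.41, 1.01 and 1.07. Before thinning, a single control B-like cell held 38 UMIs of Mup5.

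**Figure D4:**
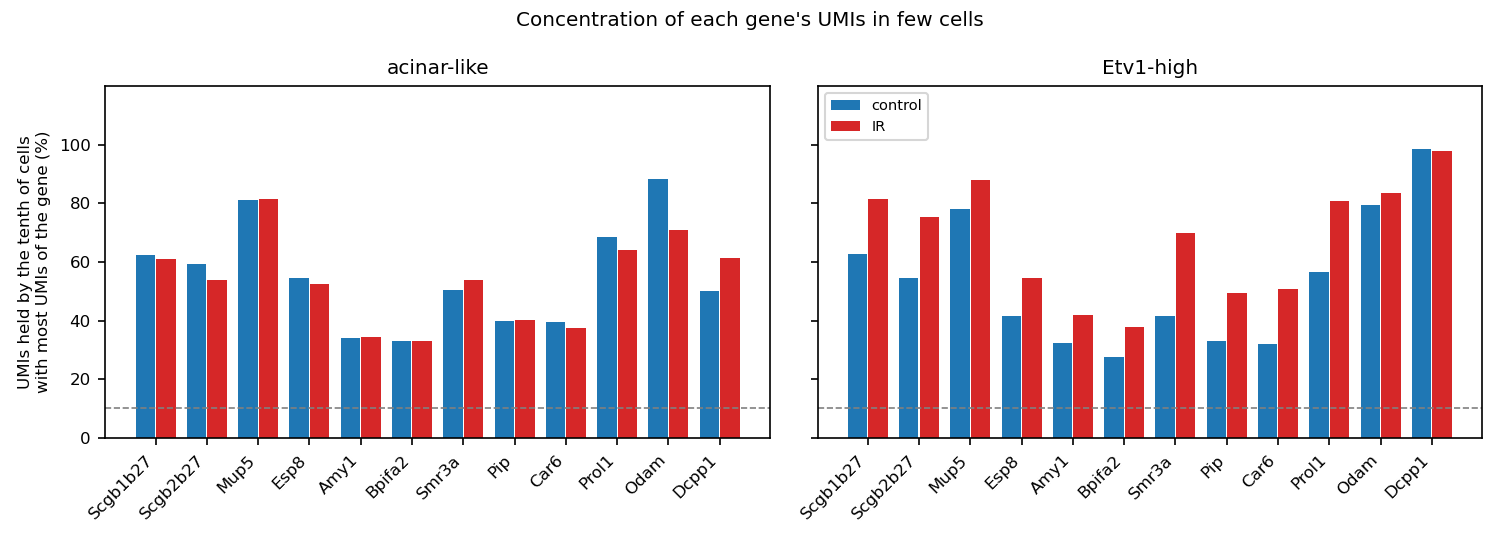
Share of a gene's UMIs (%) held by the 10% of cells with most UMIs of it, for the 4 members and the 8 secretory genes compared, in acinar-like and Etv1-high cells of each library. The dashed line at 10% is what equal cells would give. In control acinar-like cells Mup5 (81.2%) and the Scgb pair lie above Amy1 (33.9%), Bpifa2 (32.9%) and Smr3a (50.3%), while Odam (88.4%) lies above Mup5 and Prol1 (68.5%) above the pair.

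The cells rich in one of these genes tended to be rich in the others. Pearson's correlations were taken on log-transformed levels of each cell, or on log-transformed counts where cells were thinned. Over the 380 control acinar-like cells, the correlation was 0.62 between Scgb1b27 and Scgb2b27, 0.51 between Scgb1b27 and Mup5 and 0.11 between Scgb1b27 and Esp8. Over the 371 IR cells it was 0.71, 0.38 and 0.03. In Etv1-high cells the first 2 were 0.69 and 0.40 in control and 0.71 and 0.54 in IR. With cells thinned to 1000 UMIs the first 2 were 0.55 and 0.46 in control and 0.71 and 0.43 in IR acinar-like cells, and 0.59 and 0.20 in control and 0.71 and 0.57 in IR Etv1-high cells. These describe cells of 1 library each, which share depth and free RNA. In B-like cells the Scgb pair had 0.13 and 0.16.

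Cells were then split by the share of the Scgb pair in their UMIs, and Mup5 and Esp8, which the split did not use, were compared. In control, the 76 acinar-like cells in the upper 20%, above 0.382% of UMIs, held 2762 CPM of Mup5 against 158 in the other 304 cells, a ratio of 17.5 (15.6 to 19.6). In IR, 74 cells above 0.532% held 2179 CPM against 324 in 297 cells, a ratio of 6.72 (6.11 to 7.40). In Etv1-high cells the ratios were 6.48 (5.93 to 7.08) in control and 14.9 (13.5 to 16.6) in IR. Mup5 was thus the gene most enriched with the pair: of 1026 acinar genes tested in both libraries, 0.0975% were at least 2-fold higher in both, which is Mup5 alone, and of 3238 genes in Etv1-high cells 0.0618%, which are Mup5 and Odam, an odontogenic ameloblast-associated gene (2.98 and 2.63). For Esp8 the intervals included 1, with 85.2 CPM against 62.2 in control (1.37, 0.971 to 1.90) and 120 in both sets in IR (1.003, 0.743 to 1.33). With the cells split into upper and lower 50% instead, Esp8 had a ratio of 1.94 in control and 1.03 in IR, so in control its relation to the pair depends on the limit.

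The pair-rich cells were poor in Smr3a, at 0.271 of the other acinar-like cells in control and 0.415 in IR, and at 0.540 and 0.306 in Etv1-high cells. Dcpp1, an ID marker, was at 0.0438 and 0.168 of the other Etv1-high cells, and at 0.638 and 1.28 in acinar-like cells. The Etv1-high values rest on few cells, since 26 of them held 98.6% of the Dcpp1 UMIs in control and 97.9% in IR. The median pair-rich Etv1-high cell stood at 209 CPM against 699 in the other cells in control, and at 189 against 2016 in IR. In acinar-like cells Bpifa2 (1.04 and 0.998) was close to level, and Amy1 was higher in control (1.25, 1.24 to 1.27) and level in IR (1.001). Odam (3.04 and 1.34), Prol1 (2.04 and 1.40), Pip (1.27 and 1.19) and Car6 (1.13 and 1.37) were higher in the pair-rich acinar-like cells of both libraries. The split is a range and not a cell type, with 28 control and 18 IR acinar-like cells within 10% of the limit. Markers of other cells moved with it in part: the 5 B markers summed to 38.2 CPM in the pair-rich and 7.51 in the other control cells but to 40.6 and 35.5 in IR, and the 5 red blood cell markers to 381 and 437 in control but to 2329 and 260 in IR. The 7 T markers were lower in the pair-rich cells, at 5.22 against 65.5 CPM in control, where Cd3d, Cd3e and Trac were at 0, and at 34.6 against 142 in IR. In Etv1-high cells the 6 ID markers, Dcpp1 among them, summed to 1542 CPM in the pair-rich and 34911 in the other control cells. In IR they summed to 8120 and 47961. The part of these markers in the result was not tested. Median depths of the acinar-like cells were 4008.5 and 5667.5 UMIs in control and 4879.5 and 5576 in IR, and with every cell thinned to 1000 UMIs before the split the ratios of Mup5 were 10.4 and 8.995. The pair-rich Etv1-high cells were the deeper ones, with medians of 32329 against 20126 UMIs in control and 15591 against 4635 in IR.

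**Figure D5:**
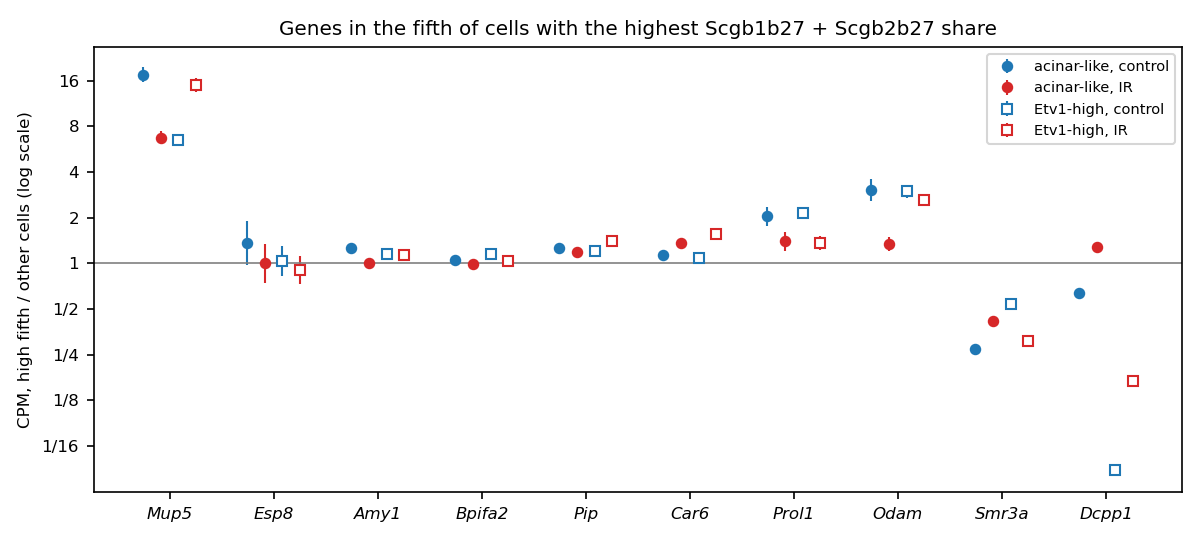
Ratio (log axis) of the CPM of Mup5, Esp8 and the 8 secretory genes in the 20% of cells with the highest Scgb1b27 and Scgb2b27 share over that in the other cells, in acinar-like and Etv1-high cells of each library, with exact 95% intervals for counting error. The grey line is a ratio of 1. Mup5 stands between 6.48 and 17.5 in the 4 sets, Esp8 between 0.909 and 1.37, and Smr3a between 0.271 and 0.540.

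The level of Esp8 differed between the second-round clusters of acinar-like cells. It was highest in second-round cluster 4.2, led by the proline-rich protein genes Prh1 and Prb1 and by Bpifb1, where 64.4% of 87 control and 66.0% of 106 IR cells had a UMI, at 92.3 and 140 CPM. In cluster 4.0 the share was 17.9% over 168 control and 16.9% over 130 IR cells, at 59.0 and 57.6 CPM. These clusters differ in depth, with medians of 11347 and 3066 UMIs in control. At 1000 UMIs per cell the shares were 16.1% and 7.05% in control and 16.2% and 4.202% in IR. Their intervals overlapped in control (9.09% to 25.5% and 3.57% to 12.3%) and were apart in IR (9.72% to 24.7% and 1.38% to 9.53%). Cluster 4.1 had 45.8 CPM of Esp8 in control and 121 in IR, so the higher level of Esp8 in IR was seen in clusters 4.1 and 4.2 and not in 4.0, and the small cluster 4.3 had 0 and 5 UMIs. In IR the intervals of Esp8 in clusters 4.1 (98.3 to 148 CPM) and 4.2 (121 to 161 CPM) overlapped. In control those of clusters 4.0 (41.3 to 81.6 CPM) and 4.2 (76.0 to 111 CPM) overlapped. Between clusters 4.0 and 4.2 Mup5 had the other order in control, with 1099 and 583 CPM, but not in IR, where it had 622 and 758. In cluster 4.1 Mup5 stood at 499 CPM in control and 504 in IR, and in control both genes were lower there than in 4.0 and 4.2. The clusters were built without the members, from cells of both libraries.

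Over the 24 combinations of 12 named classes and 2 libraries, among 5260 genes with at least 500 UMIs, the gene whose log2(CPM + 1) was most alike to that of Scgb1b27 was Scgb2b27 (Pearson's r of 0.98), followed by Pip (0.97), a prolactin-induced secreted protein, and Cst10 (0.96), a cystatin. For Scgb2b27 they were Scgb1b27, 2310057J18Rik (0.97) and Crisp1 (0.96). Mup5 was most alike to Ttr (0.84), Smr3a (0.84) and Ggh (0.84), and Esp8 to Prb1 (0.86), Chia1 (0.86) and Prpmp5 (0.85). No gene reached 0.9 with Mup5 or Esp8, whereas 13 did with Scgb1b27. The points share free RNA within a library.

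Near relatives of the members were scarce in the same acinar-like cells. Of 114 other features named as secretoglobins, major urinary proteins, exocrine gland-secreted peptides, odorant binding proteins or lipocalins, 24 had a UMI in kept cells and 15 had at least 25. They summed to 25241 UMIs in control and 419 in IR, and 92.7% of the control UMIs lay in 3 cells. Scgb1b2 had 6728 UMIs in control and 0 in IR, Obp1a 5786 and 0, Scgb2b2 5214 and 0, Obp1b 3464 and 0, and Scgb2b24 1791 and 1. In 2 of the 3 cells, with 28476 and 11542 UMIs, the relatives made up 53.2% and 63.6% of all UMIs, but these cells held 2 and 0 UMIs of the members and 24 and 9 of Amy1. The relatives and the 4 members were thus not high in the same cells. Among the 15 are also Esp6, Esp15, Scgb2a2, Lcn11, Esp18, Esp4, Esp16, Scgb1b24 and Lcn4, each with at most 833 UMIs in either library, and Lcn2, an iron-chelator-binding lipocalin of neutrophils and epithelia, with 260 and 303. Leaving out the 11 control cells and the 1 IR cell with at least 1% of such UMIs gave acinar-like ratios of 0.963, 1.502, 1.002 and 1.79. The 543 features of vomeronasal receptors and their channel Trpc2 had 31 UMIs in all.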

How the data were processed

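Droplet single-cell RNA-seq of PG was deposited as 1 count matrix per library. The authors made these UMI counts with Cell Ranger 3.0.1 on mm10 (Seurat 3 was named for their later steps, per the labels), and the deposited counts are whole and unfiltered by the limits below. Members, gene lists and comparisons were chosen with earlier results of these data known. Cells with at least 200 genes and at most 5% mitochondrial UMIs were kept, which left out 912 control and 649 IR barcodes for few genes and 1260 and 1858 for mitochondrial UMIs. Libraries were integrated by anchors in Seurat 5.3.0 (R 4.3.3) on 2000 variable genes without the members and their families, with 30 components and a resolution of 0.3, which gave 14 clusters, and some clusters were clustered again (20 components, resolution 0.8).

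A cluster took the name of the marker list with the highest mean level among those with at least 3 markers at 2 times the median cluster or more and at least 5 UMIs each, unless its 10 leading genes held at least 3 markers of another list. This rule was set after the clusters had been seen. By the exception cluster 7 (plasma and cycling genes) and cluster 13 (neutrophil and macrophage genes) stayed unnamed, and rebuilt names may differ from the study's. Named genes were the 4 members, their relatives by symbol with at least 25 UMIs, 8 secretory genes and, for each member, the 3 genes most alike over classes; genes beyond this rule, such as those leading a cluster or markers, were named after their values were seen. Scrublet in scanpy 1.11.5 called 0.947% of control and 0.0189% of IR cells doublets, so the caller did not work in IR, and no doublets were removed. UMIs were summed per class and library and given as CPM. Intervals were exact (Poisson for levels, Clopper-Pearson for shares, conditional binomial for ratios). The code was tested on simulated data. The main limits and their alternatives are compared in the closing section. Positions come from the GENCODE annotation of GRCm38. How reads shared by several genes were counted is not given in the sources used here.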

Additional observations from a re-analysis of the deposited data

Results flagged for a closer look

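The barcodes with under 200 genes, which entered no comparison, held members at levels that differed between the libraries. In 649 IR against 912 control barcodes, Scgb1b27 stood at 637 and 471 CPM (ratio 1.35), Scgb2b27 at 737 and 387 CPM (1.91) and Esp8 at 33.5 and 19.1 CPM (1.76, on 28 and 31 UMIs), each above the control with an interval that left out 1. Mup5 had 168 and 193 CPM (0.870) there. The Scgb2b27 to Scgb1b27 ratio in these barcodes was 0.821 in control and 1.16 in IR, and in those over the mitochondrial limit 0.962 and 1.36.

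Mup5 went opposite ways between the libraries in 2 classes, with an IR over control ratio of 1.96 in Etv1-high cells and 0.341 in ID-like cells. This difference was not tested, since each class has 1 library per condition, and the ID-like value rests on 34 and 22 UMIs. Per cell, Mup5 in ID-like cells stood near the background in both libraries. It was 1.48 (0.993 to 2.14) times a B-like cell in control and 1.46 (0.879 to 2.34) times in IR. The B-like ratio of IR over control was 0.605, and a single control B-like cell held 38 UMIs of Mup5. Without the 5% of Etv1-high cells with most Mup5 the Etv1-high ratio was 1.12.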

How the results depend on the processing

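No paired analysis was possible because each condition has 1 library, and for the same reason no replicate could be left out. The limits are those of 1 pool of 2 mice per condition, of free RNA in every class, and of depth, which differed between classes and libraries and left Esp8 with few UMIs per cell. In acinar-like cells the IR over control ratio of Scgb1b27 (0.965) was 0.904 with at least 500 genes per cell, 0.814 without abundant genes (mitochondrial and haemoglobin genes included) in the totals, 1.11 per 1000 Amy1 UMIs, 1.01 with equal weight per cell, 1.02 in thinned cells, 1.02 without the 5% of cells with most UMIs and 1.48 with the Etv1-high cells added. That of Scgb2b27 (1.503) was 1.42 with no mitochondrial limit, 1.43 with no integration, 1.39 with at least 500 genes, 1.27 without abundant genes, 1.73 per Amy1, 1.74 without the upper 5% and 1.86 with Etv1-high cells. That of Mup5 (1.001) was 1.08 with a mitochondrial limit of 10%, 1.09 with none, 1.25 with at least 500 genes, 0.845 without abundant genes, 1.15 per Amy1, 0.829 with equal weight, 0.733 in thinned cells and 1.53 with Etv1-high cells. That of Esp8 (1.80) was 1.06 in thinned cells. So Scgb1b27 and Mup5 in acinar-like cells had no direction that held under these alternatives, whereas Scgb2b27 stayed above 1. Esp8 was above 1 in the other alternatives but close to level in thinned cells, on 0.0932 and 0.0992 UMIs per cell in control and IR. In Etv1-high cells Scgb1b27, Scgb2b27, Mup5 and Esp8 had 1.48, 1.82, 1.81 and 1.24 with equal weight per cell and 1.48, 1.74, 1.65 and 1.48 without abundant genes. The first 3 had 1.11, 1.41 and 1.12 without the upper 5%, and 1.99, 2.25 and 2.11 without cluster 6.3. In ID-like cells Scgb1b27 and Scgb2b27 had 1.15 and 2.105 with equal weight, 3.57 and 4.61 without the upper 5% and 2.93 and 4.001 without abundant genes. The shift of the pair ratio (1.56 and 1.18) was 1.67 and 1.28 without the upper 5% and 1.42 and 1.22 in thinned cells. The shares of control acinar-like cells with a UMI were 57.0%, 54.2%, 25.5% and 8.77% after thinning. The ratio of Mup5 between pair-rich and other acinar-like cells (17.5 in control, 6.72 in IR) was 13.2 and 8.16 with the upper 10%, 12.5 in control with the upper 50%, 10.4 and 8.995 in thinned cells and 7.46 in IR without the highest doublet scores, and that of Esp8 in control (1.37) was 1.94 with the upper 50%. Of acinar genes, 6.29% were past 2-fold and 15.7% past 1.5-fold without abundant genes, against 24.6%. The level in control acinar-like over B-like cells (11.6, 7.19, 8.30 and 7.36) turned to 0.885, 0.547, 0.632 and 0.560 per 1000 Amy1 UMIs and was 6.54, 4.39, 2.87 and 5.48 without the upper 5%, 64.7, 40.04, 46.2 and 40.98 without abundant genes and 11.6, 8.14, 11.2 and 12.8 in thinned cells, and subtracting the B-like UMIs gives no value for it. Amy1 itself was 13.1 times as high in CPM in control acinar-like as in control B-like cells. The values per Amy1 UMI therefore show only that the members differed less between these cells than Amy1 did. The cause of the other differences was not tested. The alternatives for Etv1-high and ID-like cells, the pair and the pair-rich cells were chosen after seeing the data.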
